A study of Arabidopsis thaliana with 9 samples.

Results

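Of the 33602 Arabidopsis thaliana genes in the count table, 49 were near silent in wild-type seedlings and active in seedlings of the lhp1 mutant. A gene was taken into this set when it had at least 1 CPM (its count divided by the library's total count and multiplied by 1000000) in all 3 mock lhp1 libraries and at most 0.3 CPM in 5 wild-type libraries. Those 5 were the 3 libraries of jasmonate-treated wild type and replicates 1 and 3 of mock-treated wild type, so mock WT replicate 2 had no part in the choice. The members were chosen by these measured CPM values, and the difference between lhp1 and those 5 libraries is therefore given as a description with no test. The lhp1 libraries had 19171 genes at 1 CPM or more throughout, of which the set was 0.256%, and 12203 genes stayed at or below 0.3 CPM in the 5 wild-type libraries.

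The series measured polyadenylated RNA from whole seedlings aged 6 days, grown in liquid MS medium with sucrose, in 3 groups of 3 libraries that the design text calls biological replicates. Seedlings of lhp1 were given a mock solution (mock lhp1), which was ethanol at a 5000-fold dilution. Wild-type Col-0 was given jasmonate at 5 µM for 3 h (JA WT) or the same mock solution (mock WT). The labels write the dose in µm, read here as µM, and give no allele for lhp1, for which only the column names carry an allele number. In RNA of whole seedlings, fewer cells of a type and less RNA per cell cannot be told apart.

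LHP1 encodes a chromodomain protein that binds histone H3 trimethylated at lysine 27, the mark that Polycomb repressive complexes place on genes to keep them off. In seedlings that mark is known to cover many genes that act only in flowers, seeds or a few cell types, among them the floral MADS genes and FT. The MADS proteins of the SEPALLATA group work together with other floral MADS proteins to give floral organs their identity, and FT protein moves from leaf to shoot tip to start flowering.

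Library totals ranged from 18081553 to 20614062 counts in mock lhp1, from 22360776 to 31454984 in JA WT and from 24906304 to 26851011 in mock WT, and no gene of the set had more than 8 counts in any of the 5 low wild-type libraries. LHP1 itself was at 11.2, 9.13 and 10.8 CPM in mock lhp1, at 17.6, 16.8 and 17.9 CPM in JA WT, and at 19.9, 14.3 and 18.5 CPM in mock WT. The lhp1 values lay below all others, and LHP1 was called lower in mock lhp1 than in mock WT (log2 fold change −0.91, edgeR quasi-likelihood test, Benjamini-Hochberg adjusted p = 0.00116). The lowest of the wild-type values was that of mock WT replicate 2. That library also stood apart from its group in the genes of the set: their summed level was 654, 715 and 722 CPM in mock lhp1, 3.79, 2.55 and 3.12 CPM in JA WT, and 4.34, 351 and 3.30 CPM in mock WT. Without LTP4, the gene with the highest level, the sums were 261 to 270 CPM in mock lhp1 and 134 CPM in mock WT replicate 2. It stays under its label here. It lies between mock lhp1 and the other wild-type libraries for nearly every gene of the set, and whether its label is right was not tested. The open label of this library bears on every mock WT mean and call below. A fold change of another gene that moves by over 1.5 times without it is given both ways, the value without it being descriptive, and what placed the library there was not tested.

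**Figure D1:**
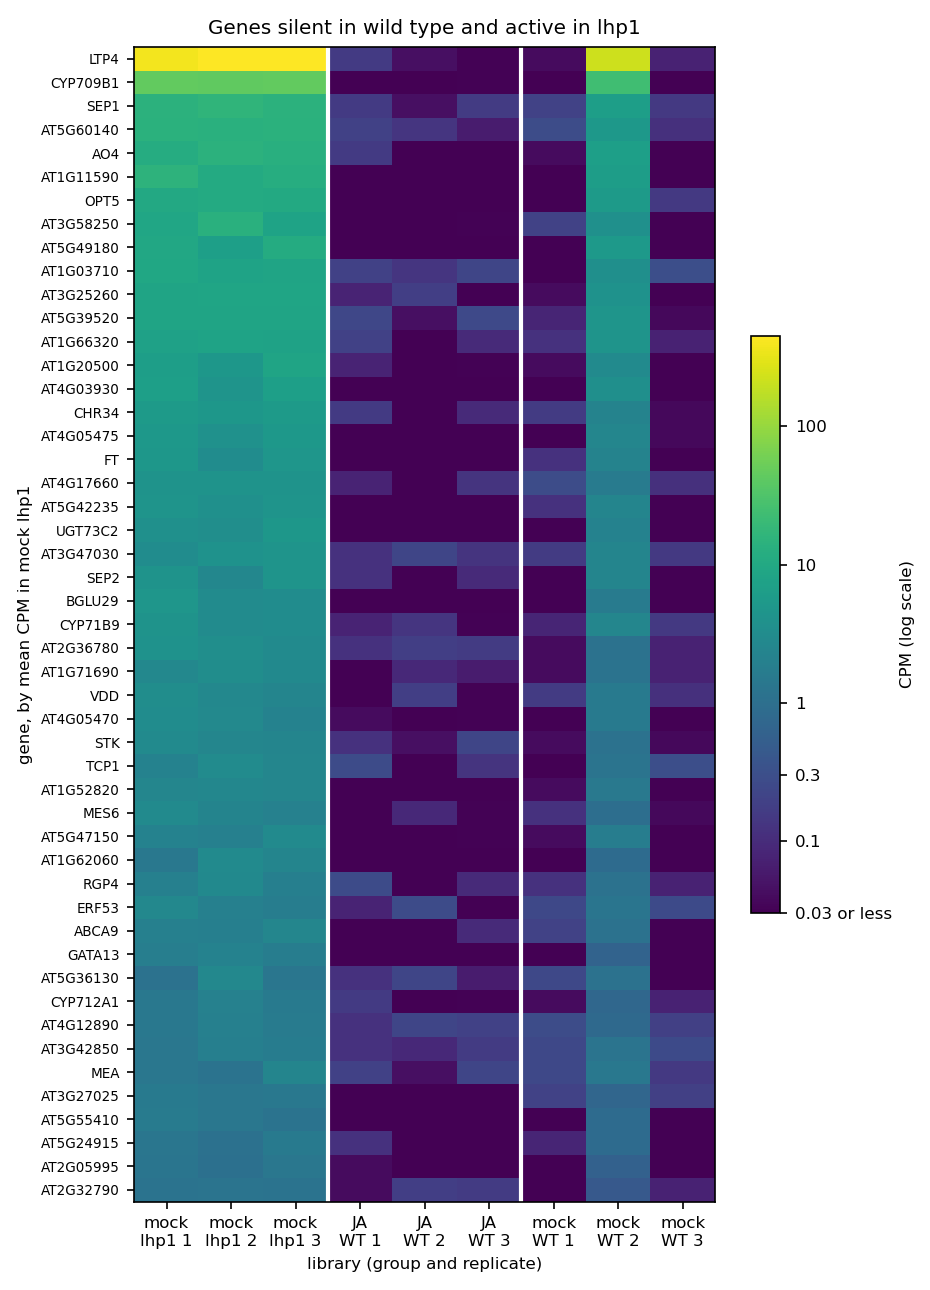
Level of each of the 49 genes (rows, ordered by mean CPM in mock lhp1) in each of the 9 libraries (columns), as CPM on a log colour scale, with values of 0.03 CPM or less drawn in the darkest colour. The 3 mock lhp1 columns are bright, the JA WT columns and mock WT replicates 1 and 3 are dark, and mock WT replicate 2 lies between them.

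Sequence upstream of the genes was not used by the choice, and 5 stretches of 250 bases before the annotated gene start are shown because they tie genes of the set to each other or carry a repeat. All are from the RefSeq genome TAIR10.1, written 5′ to 3′ on the strand of the gene. The first pair belongs to AT1G11590 (chr1:3892330-3892579, plus strand) and AT4G03930 (chr4:1870172-1870421, plus strand), annotated in the superfamily of plant invertase and pectin methylesterase inhibitors. That label names inhibitors of enzymes, among them enzymes that act on cell wall pectin, and does not give the activity of these genes. The second pair belongs to AT4G05470 (chr4:2765352-2765601, minus strand) and its neighbour AT4G05475 (chr4:2767958-2768207, minus strand), annotated as RNI-like proteins, a fold of leucine-rich repeats. Capitals mark runs of at least 12 bases that both genes of a pair have.
AT1G11590: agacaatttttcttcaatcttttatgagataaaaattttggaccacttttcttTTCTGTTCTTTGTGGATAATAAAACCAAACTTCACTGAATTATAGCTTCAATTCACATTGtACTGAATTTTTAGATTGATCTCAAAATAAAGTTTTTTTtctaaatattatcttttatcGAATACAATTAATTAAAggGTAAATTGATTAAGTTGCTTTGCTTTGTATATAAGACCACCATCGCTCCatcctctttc
AT4G03930: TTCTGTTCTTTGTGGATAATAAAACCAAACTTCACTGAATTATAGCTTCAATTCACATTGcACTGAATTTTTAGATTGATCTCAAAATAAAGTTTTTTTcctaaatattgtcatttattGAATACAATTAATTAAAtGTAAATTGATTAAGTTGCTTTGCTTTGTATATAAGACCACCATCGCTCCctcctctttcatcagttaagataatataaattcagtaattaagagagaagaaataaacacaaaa
AT4G05470: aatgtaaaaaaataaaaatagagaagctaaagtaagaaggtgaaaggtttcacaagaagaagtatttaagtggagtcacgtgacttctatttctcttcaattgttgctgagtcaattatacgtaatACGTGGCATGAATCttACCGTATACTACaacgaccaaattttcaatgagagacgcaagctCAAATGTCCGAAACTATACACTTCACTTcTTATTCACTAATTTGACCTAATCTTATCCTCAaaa
AT4G05475: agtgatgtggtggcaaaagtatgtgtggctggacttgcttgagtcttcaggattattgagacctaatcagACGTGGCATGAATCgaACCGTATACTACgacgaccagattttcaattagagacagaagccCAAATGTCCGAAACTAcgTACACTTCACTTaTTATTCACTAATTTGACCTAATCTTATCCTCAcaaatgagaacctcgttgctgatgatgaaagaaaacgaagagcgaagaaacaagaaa

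The pectin pair had 164 of 250 bases in such shared runs. Over the 197 bases that aligned upstream, 189 were identical (95.9%), and over 1987 bp of the gene spans identity was 92.2%, although the genes lie on chromosomes 1 and 4. The RNI-like pair had 86 bases in shared runs, with 114 of 126 aligned upstream bases identical (90.5%), against 71.5% identity over 1641 bp of the gene spans. The UDP-glucosyltransferase genes UGT73C2 and AT2G36780 were 84.8% identical over 1491 bp and shared no upstream run of that length, nor did SEP1 and SEP2 (80.8% over 338 bp).

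The upstream stretch of LTP4 (chr5:23925958-23926207, minus strand), the highest gene of the set, held a run of 29 bases that occurs at 2 places 50 bases apart, marked in capitals.
LTP4: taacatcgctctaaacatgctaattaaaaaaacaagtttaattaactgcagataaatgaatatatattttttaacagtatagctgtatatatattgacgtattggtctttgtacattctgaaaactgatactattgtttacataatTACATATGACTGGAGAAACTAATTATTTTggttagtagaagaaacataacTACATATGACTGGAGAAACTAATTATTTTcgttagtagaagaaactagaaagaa

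A repeated run of that length stood upstream of 168 of 32834 annotated genes (0.512%), and no other gene of the set had one longer than 13 bases. It was looked for after the sequence had been read. The short motifs searched over the 300 bases from 250 before to 50 after the gene start, on both strands, were about as frequent in the set as in all promoters. GAGAGA, part of the GAGA repeats found in plant Polycomb response elements, was in 16 of 49 (32.7%, 95% Wilson interval 21.2 to 46.6), against 28.7% of all promoters. GAGAGAGA, which holds GAGAGA, was in 3 (6.12% against 7.88%). The telobox AAACCCTA was in 2 (4.08% against 6.22%), the G-box CACGTG in 4 (8.16% against 6.90%) and the CArG box, the element that MADS proteins bind, in 2 (4.08% against 2.80%). All 5 shares in the set had few genes behind them, and a match is a run of letters, not a bound site.

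Levels in mock lhp1 were low for most of the set. Mean levels ran from 1.19 to 430.6 CPM with a median of 3.56 CPM. Of the 49 genes, 11 were under 2 CPM, 22 between 2 and 5, 8 between 5 and 10, and 8 at 10 CPM or more. Per kilobase of exon, the median was 2.44 CPM per kb in the set, against 10.5 over the 19084 genes active in lhp1 that have an annotated length, and 3 of the 49 were above that median. The coefficient of variation over the 3 mock lhp1 libraries had a median of 16.0% and ran from 0.826% (AT4G17660, a protein kinase gene) to 50.2% (AT5G36130).

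LTP4 alone made up 61.8% of the set's summed CPM in mock lhp1. It encodes a small secreted lipid transfer protein. It was measured at 386, 454 and 452 CPM in mock lhp1, at 0.156, 0.0447 and 0.0318 CPM in JA WT, and at 0.0402, 217 and 0.0749 CPM in mock WT. The 5 low wild-type libraries held 9 counts of it together, and mock WT replicate 2 held 5829. Per kilobase it stood at 519 CPM per kb in mock lhp1, rank 108 among the lhp1-active genes. CYP709B1, a cytochrome P450 gene, came next with 44.3, 43.9 and 45.4 CPM in mock lhp1, 0, 0 and 0.0318 CPM in JA WT, and 0, 23.3 and 0 CPM in mock WT. Its level per kilobase was 21.4 CPM per kb in mock lhp1.

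In the 5 wild-type libraries 8 of the 49 genes had no count at all: AT1G11590, AT5G49180, AT4G03930, UGT73C2, BGLU29, AT1G62060, GATA13 and AT5G55410. In JA WT alone 14 genes had none, and in mock WT replicates 1 and 3 together 12 had none. Set against a floor of 3 counts over the 5 libraries, mean levels of those 8 in mock lhp1 were at least 60.3-fold (AT5G55410) to at least 553-fold (AT1G11590) higher. For the 41 genes with a count the ratio ran from 8.46 (AT4G12890) to 6278 (LTP4), with a median of 55.3, and 8 of them had only 1 to 3 counts. FT, for instance, had 245 counts in mock lhp1 and 3 in the 5 libraries, which is 187-fold (95% exact counting limits 63.3 and 913). Intervals and floors cover counting error only.

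Genes just inside and outside the limits formed no gap. AT2G05995, AT5G24915 and AT5G36130 had the smallest lhp1 minima inside the limit (1.05, 1.11 and 1.14 CPM), and HB-3, SKS2 and AT5G66816 just missed it (0.973, 0.919 and 0.885 CPM). On the wild-type side AT1G03710 and TCP1, each with a maximum of 0.30 CPM, and AT4G12890 with 0.281 CPM were just inside. AT5G11360, the petal and stamen identity gene PI and AT1G24485 just missed it at 0.313, 0.321 and 0.337 CPM. The opposite pattern, at least 1 CPM in the same 5 wild-type libraries and at most 0.3 CPM in all mock lhp1 libraries, was met by 2 genes, GH9B15, a glycosyl hydrolase gene, and ACS4, a gene for ethylene synthesis; this comparison was chosen after the data had been seen.

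Mock WT replicate 2, which the choice did not use, gave a reading of each gene that the choice had not fixed. All 49 genes were higher there than in every other wild-type library and above 0.3 CPM, and 39 reached 1 CPM. It was also below every mock lhp1 library for 48 of the 49, the exception being MEA. As a share of the mock lhp1 mean, the levels had a median of 51.9% with quartiles of 44.2% and 57.5%, and the 95% counting interval of the share held that median for 43 genes, lay below it for 4 and above it for 2. The 10 genes with the highest levels lay between 36.9% and 57.2%, and the 10 with the lowest between 37.6% and 86.8%.

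The lowest shares belonged to AT2G36780 (31.6%), GATA13 (33.1%), the TRAF-like gene AT3G58250 (36.9%), the B3-type transcription factor gene AT5G60140 (37.0%) and the ubiquitin-conjugating enzyme gene AT2G32790 (37.6%). The highest belonged to MEA (86.8%), AT5G47150, a gene for a YDG/SRA domain protein (75.4%), AT3G42850 (74.8%), CYP71B9 (69.1%) and AT5G36130 (65.0%). Of the 2 genes with the opposite pattern, GH9B15 was there at 41.8% and ACS4 at 64.6% of the mean of the other 5 wild-type libraries. With 1 library these shares have no replicate error.

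**Figure D2:**
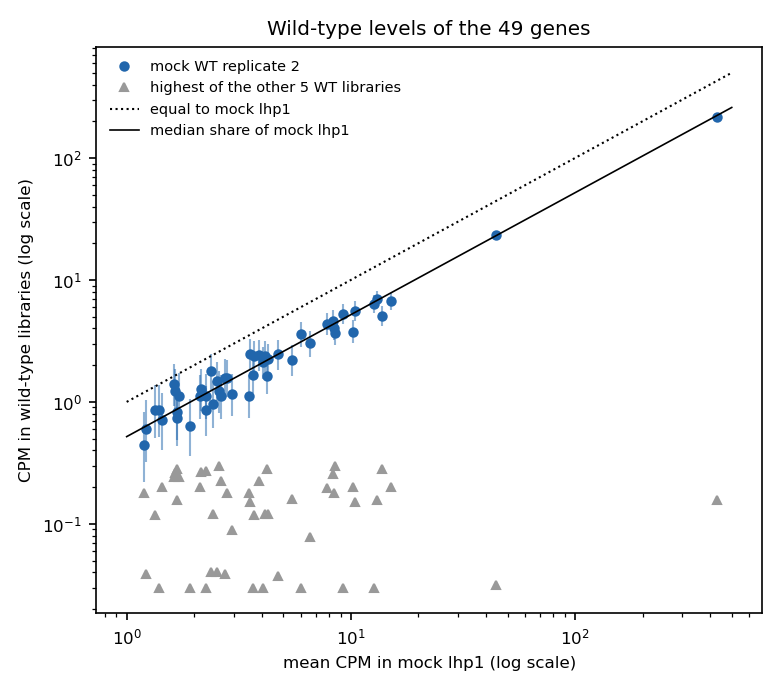
CPM in wild-type libraries (vertical, log scale) against mean CPM in mock lhp1 (horizontal, log scale) for the 49 genes. Circles are mock WT replicate 2 with 95% counting intervals and follow the solid line at the median share of 51.9%, and grey triangles are the highest of the other 5 wild-type libraries, with 0.03 CPM or less drawn at 0.03.

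With mock WT replicate 2 kept in its labelled group, edgeR's quasi-likelihood test over 20986 genes called 21 of the 49 higher in mock lhp1 than in mock WT and none lower. Of all tested genes 25.5% were called, 11.1% higher and 14.4% lower, and since this contrast chose the set, nothing is read from the count. The log2 fold changes ran from 1.3 to 2.98 with a median of 2.32 (0.00 over all tested genes), positive values that the choice of the set fixes. Without that library all 49 were called, beside 15.6% of all genes called higher and 16.9% lower in that fit. Leaving out 1 mock lhp1 library gave 3 to 6. The 3 mock lhp1 values lay above the 3 mock WT values for 48 genes (38.0% of all tested genes). For genes of the set only mock WT replicate 2 was free to overlap, so this too supports nothing.

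The response to jasmonate could not be read from the set, because the choice held the JA WT libraries and mock WT replicates 1 and 3 at 0.3 CPM or less. In edgeR's test of JA WT against mock WT 0 of the 49 genes were called higher, which the choice all but excludes, and 2 lower (LTP4 and AT3G27025). Of all tested genes 15.7% were called, 8.62% higher and 7.07% lower, and nothing is read from the set's count beside them. At an unadjusted edgeR p under 0.05 the count was 37, and DESeq2 called 9 of the 35 it tested, all lower. Shares of all tested genes are not given for these settings or for the next fit. Nothing is read from these counts either. Without mock WT replicate 2 edgeR called 1 gene lower. LTP4 was not that gene: its JA WT values of 0.0318 to 0.156 CPM overlapped the 0.0402 and 0.0749 CPM of the other mock WT libraries. AT3G27025 had no count in JA WT and was at 0.201, 0.708 and 0.187 CPM in mock WT. The JA WT and mock lhp1 comparisons share their mock WT libraries, so the values of the genes in them are not independent.

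The transcription factor genes of the set include 3 floral MADS genes. SEP1 (AT5G15800, chr5:5151334-5154253), a SEPALLATA gene, was at 14.5, 16.1 and 14.6 CPM in mock lhp1, 0.156, 0.0447 and 0.159 CPM in JA WT, and 0.201, 6.67 and 0.150 CPM in mock WT. SEP2 (AT3G02310), its close relative, had 4.22, 2.54 and 4.37 CPM in mock lhp1, 0.117, 0 and 0.0954 CPM in JA WT, and 0, 2.38 and 0 CPM in mock WT. STK (AT4G09960), which gives ovules their identity, had 3.03, 2.49 and 2.38 CPM in mock lhp1, 0.117, 0.0447 and 0.223 CPM in JA WT, and 0.0402, 1.12 and 0.0375 CPM in mock WT. In all 3 genes the mock lhp1 values were above every wild-type value.

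VDD (AT5G18000), a B3-domain gene that in Arabidopsis is a direct target of STK in the ovule, was at 3.35, 2.71 and 2.38 CPM in mock lhp1, at 0 to 0.179 CPM in JA WT, and at 0.161, 1.56 and 0.112 CPM in mock WT. The uncharacterised AP2/B3-like gene AT5G60140 was higher, at 14.0, 13.6 and 13.8 CPM in mock lhp1, 0.195, 0.134 and 0.0636 CPM in JA WT, and 0.281, 5.10 and 0.112 CPM in mock WT. TCP1, of the family that includes regulators of floral symmetry and branching, was at 2.11, 3.15 and 2.52 CPM in mock lhp1, at most 0.273 CPM in JA WT, and 0, 1.23 and 0.30 CPM in mock WT. GATA13, a zinc finger gene, was at 1.84, 2.1 and 1.79 CPM in mock lhp1 and at 0.633 CPM in mock WT replicate 2, with 0 elsewhere. The ethylene-response-factor gene ERF53 was at 2.65, 1.99 and 1.79 CPM in mock lhp1, 0.0781, 0.268 and 0 CPM in JA WT, and 0.241, 1.27 and 0.262 CPM in mock WT.

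FT (AT1G65480, chr1:24331373-24333999) was at 4.81, 3.26 and 4.71 CPM in mock lhp1, had no count in JA WT, and was at 0.120, 2.23 and 0 CPM in mock WT. Among genes of chromatin, MEA, a histone methyltransferase of Polycomb complexes known for its action in the endosperm, was at 1.35, 1.16 and 2.38 CPM in mock lhp1, 0.195, 0.0447 and 0.223 CPM in JA WT, and 0.241, 1.42 and 0.150 CPM in mock WT. In MEA mock WT replicate 2 was above 2 of the mock lhp1 libraries. CHR34, annotated as a chromatin remodelling protein, was at 5.78, 4.87 and 5.72 CPM in mock lhp1, at most 0.156 CPM in JA WT, and 0.161, 2.20 and 0.0375 CPM in mock WT.

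Relatives of these genes outside the set, from lists chosen with earlier results known, show how far the pattern extends. Of 38 tested MADS-box genes outside the set, 10 were called higher and 2 lower in mock lhp1, and 17 and 3 of 39 without mock WT replicate 2, beside 15.6% higher and 16.9% lower over all genes in that fit (11.1% and 14.4% with the library). Of 7 tested floral organ MADS genes outside the set, 4 were higher: AG (log2 fold change 2.14, edgeR adjusted p = 0.0103), which specifies stamens and carpels, SEP3 (1.66, edgeR adjusted p = 0.00992), and the fruit genes SHP1 (1.39) and SHP2 (2.25). Without mock WT replicate 2 it was 6 of 8, with 3.54 for AG, 2.54 for SEP3, 2.30 for SHP1 and 5.34 for SHP2. The calls of AG and SEP3 held without any 1 library, while that of SHP1 was lost without mock WT replicate 1 or 3 or any mock lhp1 library, and that of SHP2 without any 1 library other than mock WT replicate 2. The wild-type levels of these 4 were above the limit of 0.3 CPM in at least 1 of the 5 libraries, and SEP3 was at 172 to 174 CPM in mock lhp1, 19.7 to 23.8 CPM in JA WT, and 26.7, 97.5 and 26.3 CPM in mock WT. AP3, which specifies petals and stamens, was at 31.8 to 33.1 CPM in mock lhp1, 0.223 to 0.402 CPM in JA WT, and 0.522, 16.9 and 0.412 CPM in mock WT, and did not pass (2.31, edgeR adjusted p = 0.0561; 5.93 and called without mock WT replicate 2).

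The other lists are small and stand beside 11.1% higher and 14.4% lower over all tested genes (15.6% and 16.9% without mock WT replicate 2). Of 9 tested flowering-time genes outside the set 2 were higher, AGL24 (1.54), a promoter of flowering, and TFL1 (1.10), which opposes FT, and SVP (−0.78), a repressor of FT, was lower. Without mock WT replicate 2 it was 4 higher and 1 lower, with 2.38 for AGL24. SVP held without any 1 library, while AGL24 was lost without mock lhp1 replicate 1 and TFL1 without mock lhp1 replicate 2 or mock WT replicate 3. In the Polycomb list 1 of 16 tested genes outside the set was higher, EMF1 (0.52, lost without mock lhp1 replicate 2), and 1 lower, LHP1. Of 7 meristem genes KNAT6 was higher (0.47, lost without mock lhp1 replicate 1 or 2, mock WT replicate 3 or JA WT replicate 2 or 3), and of 4 carpel regulators ALC was higher (0.81) and HEC1 lower (−2.85). Without mock WT replicate 2 it was 1 higher and 1 lower of 16 Polycomb genes, 1 higher of 7 meristem genes, and 2 higher and 1 lower of 4 carpel regulators. Scaling by total counts in place of TMM moved the median log2 fold change of all genes by 0.15 and the share of calls that were higher to 72.9%, from 43.4%.

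Of the lists for other cell types only 1 tapetum, 2 pollen and 1 seed gene outside the set were tested. None was called higher, with a log2 fold change of 1.46 for the seed gene. Other cell types as a source of the set's levels were not tested. Of 13 tapetum and anther genes 6 had no count in mock lhp1, among them DYT1, MS1, A9, ATA7 and CYP703A2, which were at 0 in all 9 libraries, and the list's sum was 7.91 to 8.22 CPM in mock lhp1, 4.61 to 7.38 CPM in JA WT and 4.90 to 6.41 CPM in mock WT, nearly all from LAP6. Of 11 pollen genes 6 had no count in mock lhp1, VGD1, VGDH1, PPME1, SKS11 and SKS12 were at 0 throughout, and the sums were 2.96 to 4.16 CPM in mock lhp1, 2.77 to 2.85 CPM in JA WT and 2.57 to 3.48 CPM in mock WT. The 18 embryo and seed maturation genes summed to 1.57 to 5.2 CPM in mock lhp1, 1.18 to 1.74 CPM in JA WT and 0.749 to 1.01 CPM in mock WT. In the fit without mock WT replicate 2, of 4 tested 3 were called higher, beside 15.6% of all genes. The 5 endosperm and imprinted genes, MEA included, summed to 1.27 to 3.30 CPM in mock lhp1, 0.509 to 0.894 CPM in JA WT and 0.487 to 1.94 CPM in mock WT, with FIS2 at 0 throughout.

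Markers of the seedling's own organs were also compared. All 6 seedling shoot markers were called lower in mock lhp1 (log2 fold change for example −1.0 for RBCS1A and −1.40 for LHCB3), and their sum was 19083 to 19752 CPM in mock lhp1, 36178 to 37924 CPM in JA WT and 31056 to 44915 CPM in mock WT, lowest of the wild type in mock WT replicate 2. Of 10 root markers CASP1 (0.50) and COBL9 (0.58) were called higher, and the sum was 195 to 210 CPM in mock lhp1, 125 to 130 CPM in JA WT and 142 to 174 CPM in mock WT. COBL9 was lost without mock lhp1 replicate 1 or 2, and CASP1 without any 1 library other than mock WT replicates 1 and 2. Over all tested genes 11.1% were called higher and 14.4% lower. Without mock WT replicate 2 again all 6 shoot markers were lower and 2 of 10 root markers higher. That fit called 15.6% of all genes higher and 16.9% lower. The sums are plain CPM, without the TMM factors of the model. The part of these marker shifts in the levels of the set was not tested.

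Enzyme genes followed. Of 4 cytochrome P450 genes, CYP709B1 led. CYP71B9 was at 4.27, 3.15 and 3.25 CPM in mock lhp1, 0.0781, 0.134 and 0.0318 CPM in JA WT, and 0.0803, 2.46 and 0.150 CPM in mock WT. CYP712A1 was at 1.41, 2.05 and 1.60 CPM in mock lhp1 and AT5G36130 at 1.14, 2.71 and 1.31 CPM, with maxima of 0.156 and 0.241 CPM in the 5 wild-type libraries. Of 175 tested P450 genes outside the set 51 (29.1%) were higher and 26 (14.9%) lower in mock lhp1, against 11.1% and 14.4% of all tested genes. Without mock WT replicate 2 it was 69 and 27 of 181, against 15.6% and 16.9% of all genes in that fit.

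The pectin genes AT1G11590, AT5G49180 and AT4G03930 had no count in any of the 5 wild-type libraries. AT1G11590 was at 14.9, 10.9 and 12.2 CPM in mock lhp1 and at 6.41 CPM in mock WT replicate 2. AT4G03930 was at 6.92, 4.37 and 6.74 CPM in mock lhp1 and at 3.61 CPM in mock WT replicate 2. AT5G49180 was at 9.67, 6.75 and 11.3 CPM in mock lhp1 and at 5.29 CPM in mock WT replicate 2. In all 3 genes mock WT replicate 2 was below every mock lhp1 library. The sources used here do not give how reads with several matches were treated. The split between AT1G11590 and AT4G03930, alike over most of their length, is therefore uncertain. Of 125 tested pectin-related genes outside the set 15 (12%) were higher and 26 (20.8%) lower, beside the same 11.1% and 14.4%. Without mock WT replicate 2 it was 25 and 29, beside 15.6% and 16.9% of all genes in that fit.

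**Figure D3:**
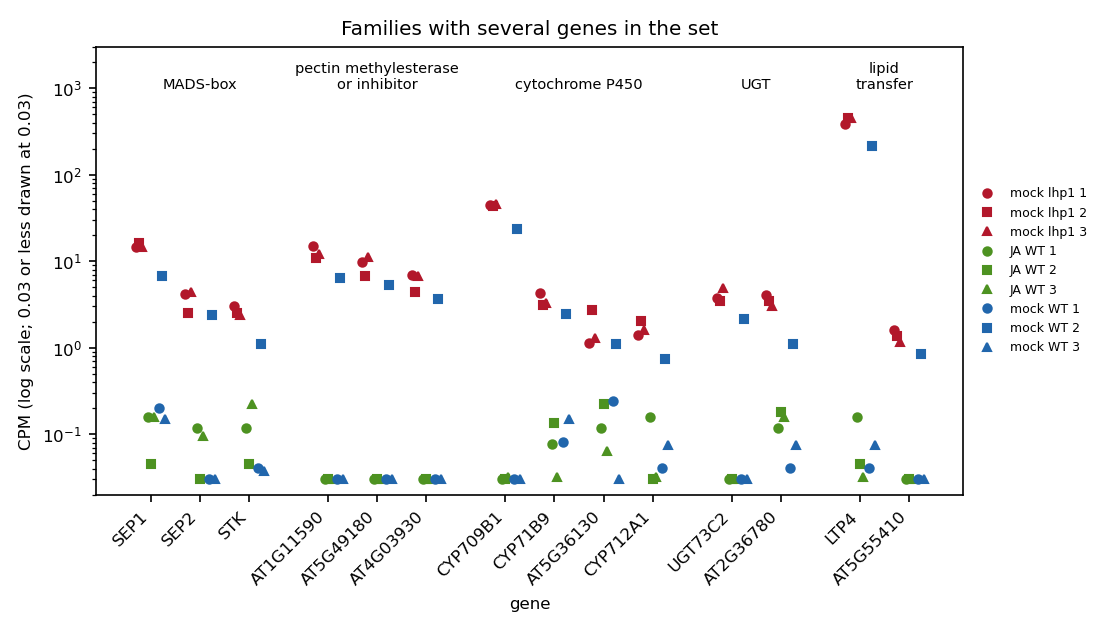
CPM (vertical, log scale, 0.03 or less drawn at 0.03) in each of the 9 libraries for 14 genes of 5 families with more than 1 gene in the set. In each gene the mock lhp1 points are highest, mock WT replicate 2 (blue squares) lies below them, and the other wild-type points are below 0.3 CPM.

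Of further enzyme genes, AO4, an aldehyde oxidase gene, was at 11.7, 14.5 and 13.0 CPM in mock lhp1, 0.156, 0 and 0 CPM in JA WT, and 0.0402, 6.93 and 0 CPM in mock WT. BGLU29, a beta-glucosidase gene, was at 4.65, 3.10 and 3.20 CPM in mock lhp1 and at 1.68 CPM in mock WT replicate 2, with 0 elsewhere. RGP4, MES6, AT1G20500 (an AMP-dependent ligase gene) and AT1G52820 (an oxygenase gene) had means of 2.26, 2.43, 6.56 and 2.52 CPM in mock lhp1. The second lipid transfer protein gene, AT5G55410, was at 1.62, 1.38 and 1.16 CPM in mock lhp1 and at 0.857 CPM in mock WT replicate 2, with 0 elsewhere, far under LTP4 on the same scale.

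Transporter genes were OPT5, ABCA9 and AT3G25260. OPT5, of the oligopeptide transporter family, was at 10.2, 10.7 and 10.5 CPM in mock lhp1, had no count in JA WT, and was at 0, 5.59 and 0.150 CPM in mock WT. ABCA9, an ABC transporter gene, was at 2.0, 1.88 and 2.47 CPM in mock lhp1 and AT3G25260, of the major facilitator family, at 8.22, 8.46 and 8.49 CPM. Genes of protein turnover or binding were AT3G58250, with 8.81, 13.7 and 8.05 CPM in mock lhp1, and the F-box genes AT1G66320 and AT3G47030, with means of 7.80 and 3.90 CPM. AT1G66320 is 97.8% identical to AT1G66640 over 1827 bp, so its counts are uncertain. AT1G03710, a cystatin-like gene, was at 9.35, 7.96 and 8.30 CPM in mock lhp1 and AT5G39520 at 8.16, 8.30 and 8.44 CPM. The other genes were AT4G17660, AT5G42235, AT1G71690, AT5G47150, AT1G62060, AT4G12890, AT3G42850, AT3G27025, AT2G32790, a pseudogene (AT5G24915) and a non-coding RNA gene (AT2G05995), with means of 1.19 to 4.23 CPM in mock lhp1.

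In structure the set was close to all tested genes, with a median exon length of 1535 bp, against 1771 bp, and 14.3% single-exon genes, against 17.5%. Chromosomes 1 to 5 held 11, 12, 6, 7 and 13 of the 49, or 22.4%, 24.5%, 12.2%, 14.3% and 26.5%. Of tested genes they held 26.4%, 15.2%, 19.7%, 15.3% and 23.3%. The set's share was thus higher on chromosome 2 and lower on chromosome 3, a difference that was not tested. By position the set was mostly scattered. Only AT4G05470 and AT4G05475 were next to each other, with means of 2.73 and 4.73 CPM in mock lhp1, and their flanking genes AT4G05460 and AT4G05490 differed from them, AT4G05460 at 9.17 to 15.4 CPM over all libraries and AT4G05490 at 0 in all. Counting up to 1 gene in between, UGT73C2 and AT2G36780 made a second pair. Of 95 neighbouring genes outside the set 69 were tested, and 9 (13.0%) were called higher and 9 (13.0%) lower in mock lhp1, close to the 11.1% and 14.4% of all tested genes, with a median log2 fold change of 0.02. Without mock WT replicate 2, an alternative chosen after the data had been seen, 12 of 70 (17.1%) were higher and 9 lower, beside 15.6% and 16.9% of all genes.

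The UGT73C run on chromosome 2 holds genes for enzymes that attach glucose to small molecules. UGT73C2 was at 3.73, 3.48 and 4.95 CPM in mock lhp1 and at 2.12 CPM in mock WT replicate 2, with 0 elsewhere. AT2G36780 was at 4.11, 3.43 and 3.06 CPM in mock lhp1, 0.117, 0.179 and 0.159 CPM in JA WT, and 0.0402, 1.12 and 0.0749 CPM in mock WT. The gene between them, AT2G36770, followed the same order, with 4.32, 3.71 and 3.49 CPM in mock lhp1, 0.195, 0.179 and 0.572 CPM in JA WT, and 0.201, 2.27 and 0.187 CPM in mock WT, and JA WT replicate 3 kept it out of the set. It was called higher (log2 fold change 1.97, edgeR adjusted p = 0.0477), a call lost without any 1 library other than mock WT replicate 2, without which the change was 4.10. At the ends of the run UGT73C1 (1.05, edgeR adjusted p = 0.156) and UGT73C6 (1.05, edgeR adjusted p = 0.0576; 1.62 and called without mock WT replicate 2) did not pass, and SWC2 outside it was at 12.6 to 16.9 CPM in every library. Reads of such similar genes may be shared among them.

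On chromosome 5 the P450 gene AT5G36130 lies next to CYP716A2, which was at 3.95, 5.97 and 5.87 CPM in mock lhp1, 0, 0.0894 and 0.0954 CPM in JA WT, and 0.683, 2.46 and 0.112 CPM in mock WT. CYP716A2 was called higher (2.14, edgeR adjusted p = 0.0234, lost without mock lhp1 replicate 2 or 3), and so was the next gene, PEN3, a triterpene synthase gene (1.62, edgeR adjusted p = 0.0293, lost without mock WT replicate 1 or 3 or any mock lhp1 library). Without mock WT replicate 2 the changes were 3.56 for CYP716A2 and 2.81 for PEN3. On the other side, past AT5G36125 at 0 in all libraries, CCB3 was lower (−0.77, edgeR adjusted p = 0.000764), and AT5G36160 past PEN3 differed by 0.09 (edgeR adjusted p = 0.384).

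LTP3, the next gene to LTP4 at a distance of 2996 bp and also for a lipid transfer protein, was at 366, 414 and 414 CPM in mock lhp1, 0.937, 0.894 and 1.24 CPM in JA WT, and 1.49, 198 and 1.95 CPM in mock WT. Its lhp1 values were close to those of LTP4, but its low wild-type values were above the limit of 0.3 CPM, and it did not pass (2.47, edgeR adjusted p = 0.144; 7.68 and called without mock WT replicate 2). UBC7, on the other side of LTP4 past AT5G59305, was at 34.9 to 37.9 CPM in mock lhp1, 22.3 to 24.5 CPM in JA WT and 26.2 to 31.6 CPM in mock WT (0.16, edgeR adjusted p = 0.134). Other neighbours called higher were RTFL21 beside TCP1 (2.21, and 3.69 without mock WT replicate 2), CYP714A1 beside AT5G24915 (1.05), PMEPCRA beside AT1G11590 (0.50), AT1G65481 beside FT (0.91), AT3G47040 beside AT3G47030 (0.62), AGC2-1 beside AT3G25260 (0.59) and GATA27 beside AT5G47150 (0.35). Of these 7, CYP714A1 and PMEPCRA were called without any 1 library, and each of the other 5 was lost without at least 1.

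**Figure D4:**
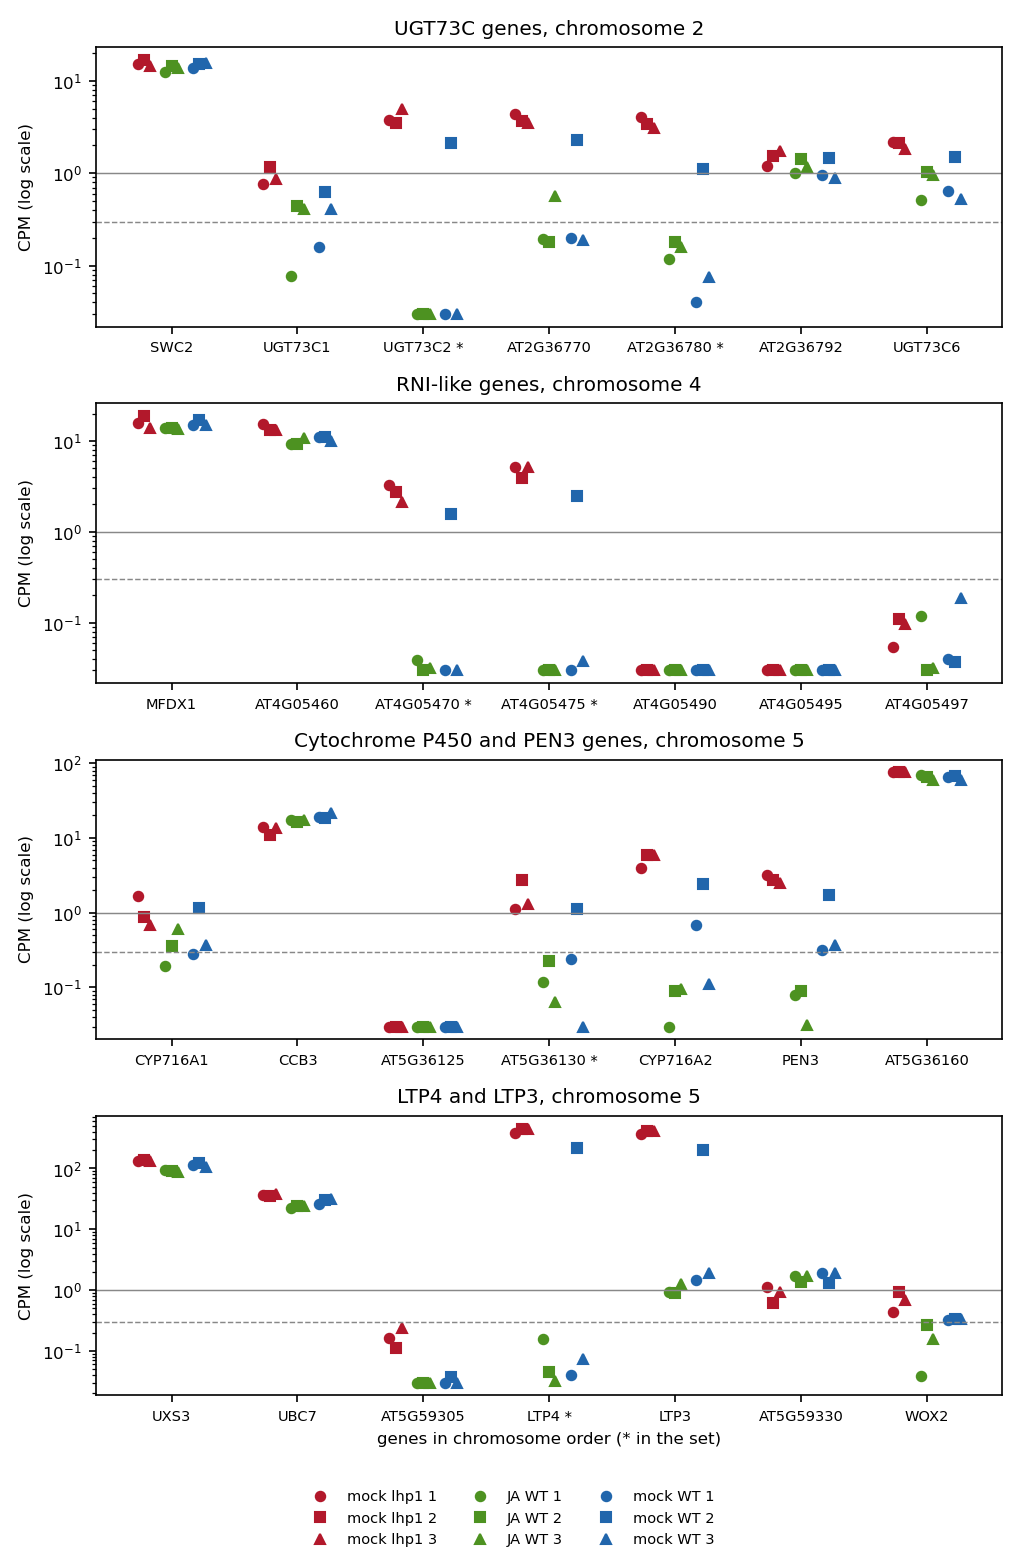
CPM (vertical, log scale, 0.03 or less drawn at 0.03) in the 9 libraries for genes in chromosome order around 4 places, with genes of the set marked by a star and lines at the limits of 0.3 and 1 CPM. Genes of the set and a few neighbours are high in mock lhp1 and mock WT replicate 2, while SWC2 lies at 12.6 to 16.9 CPM in all libraries. UBC7 is somewhat higher in plain CPM in mock lhp1 (34.9 to 37.9 CPM) than in the wild-type libraries (22.3 to 31.6 CPM). It was not called between mock lhp1 and mock WT (log2 fold change 0.16, edgeR adjusted p = 0.134).

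Of the 49 genes 9 overlap another annotated locus on the opposite strand: SEP1, STK, VDD, OPT5, MES6, CYP712A1, AT1G52820, AT1G71690 and AT5G39520. The sources used here do not give the strand setting of the counting, so reads in the overlapping stretches may have come from either locus. Levels of a gene and its partner could still differ. In JA WT replicate 1, for example, VDD had no count and its partner TRP1 was at 124 CPM. In JA WT replicate 2 TRP1 was again at 124 CPM, and VDD was at 0.179 CPM. How many counts the overlaps touch was not tested.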

How the data were processed

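The deposited file gives raw counts of reads for 33602 genes, which the authors had not normalized, as its whole numbers show. Per the submitters' processing notes TopHat, HTSeq and edgeR were used with the TAIR10 build, and no versions are given. Another 3 columns, whose names fit none of the samples, are not used here. Levels (CPM) are counts over the column sum times 1000000. Names, coordinates and sequence came from RefSeq TAIR10.1 by locus identifier (32835 genes matched).

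All 9 libraries entered 1 model in edgeR 4.0.16 under R 4.3.3 (TMM factors, filterByExpr, quasi-likelihood test, two-sided, 1 mean per group, no covariate, Benjamini-Hochberg adjusted p below 0.05 over 20986 genes), after a check on simulated counts. The p-values set each group difference against the spread between libraries, estimated over the 3 groups together. That spread was unequal. Chi-square per degree of freedom, larger where replicates of a pair differ more, was 20.8 to 37.85 in mock WT. It was 5.70 to 11.9 in JA WT and 2.47 to 3.68 in mock lhp1. Mock WT replicates 1 and 3 gave 26.2, so replicate 2 was not the only source of spread there. A shared estimate may thus understate the error of mock WT. DESeq2 1.42.0, other scalings, no filter, the compared groups only, a replicate block and leaving out each library were alternatives. Sequences were compared with BLAST 2.17.0, and counting intervals and figures came from SciPy 1.17.1 and matplotlib 3.10.9 in Python 3.11.15.

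The set, lists and tests were chosen with earlier results of these data known. Named genes were the 12 highest of the set, its transcription factors and list genes, the 3 highest of larger families, runs of neighbours, genes at the limits, and the 5 lowest and 5 highest shares in mock WT replicate 2. Other genes of the set, called neighbours, VDD, ERF53, CHR34, AP3 and LTP3 were named after their values were seen.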

Additional observations from a re-analysis of the deposited data

How the results depend on the processing

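The set held 86 genes with a minimum of 0.5 CPM in mock lhp1, 16 with a wild-type maximum of 0.1 CPM and 0 with mock WT replicate 2 held to that maximum. Without 1 library of the choice it held 50 to 61 genes. The median share in mock WT replicate 2 was 55.4% with TMM scaling. The genes called between mock lhp1 and mock WT numbered 5344, and 3181 to 6866 without 1 library. Of the set, 8 of 35 tested were called in that contrast with DESeq2, 13 with the compared groups only, and 3 to 49 without 1 library. After jasmonate 4 were called with total counts, 4 with no filter on low counts, 9 with DESeq2, and 1 to 31 without 1 library, and with the compared groups only the set was not tested. Shares over all tested genes at these settings are not given beside the set's counts. Nothing is read from these counts, because the choice of the set used the same libraries. Within 5 kb, or with 1 gene between, 4 genes of the set neighboured another, and with 2 genes on each side 19 neighbours (14.6% of 130) were called higher. The 8-base GAGA motif was in 6.12%. No direction reversed. Scaling by total counts gave 5045 higher and 1878 lower genes in mock lhp1, and 1217 and 3034 after jasmonate, where the higher share fell to 28.6%, against 55.0% with TMM. The cause of these shifts was not tested.

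With the replicate number as a block 35 genes of the set were called in mock lhp1 and 2 after jasmonate. The share of all tested genes called in that fit is not given, and nothing is read from these counts either. The labels do not say that the numbers pair libraries. Deviations of same-numbered libraries correlated at −0.0757, −0.0100 and 0.0398 between mock lhp1 and mock WT, and at 0.217, 0.0335 and 0.134 between JA WT and mock WT. Such correlations cannot exclude pairing, and the main model assumed none. Depth limits the lowest genes: AT2G32790 had 68 counts over the mock lhp1 libraries, and its share in mock WT replicate 2 has a counting interval of 18.5% to 70%.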
